A study of Mus musculus with 8 samples.

Results

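Zinc finger genes whose mouse symbol runs from Zfp800 to Zfp999 were followed across 8 one-colour Agilent arrays of RNA from mouse neurospheres. A gene was a member when its symbol in the RefSeq gene table fell in that number range, and a probe was assigned to it through the RefSeq accession that the array files give for the probe. Of 89 such genes in the table, 69 had at least 1 probe, with 119 probes between them, against 49106 features on the whole array, and the other 20 had none. The gene numbers, not any measured value, chose the members.

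Neurospheres are balls of neural stem and progenitor cells, here grown from the ganglionic eminence of single mouse embryos at E14.5 and taken at the quaternary passage, so that each array stands for 1 embryo's culture. The wild type group in floating culture (WT floating) and the HP1gamma KO group in floating culture (KO floating) had 3 arrays each, and the HP1gamma KO group in adherent culture (KO adherent) had 2. No wild type adherent array was present, and all groups shared the medium with B-27, EGF and bFGF. The labels gave neither the strain nor the kind of deletion, and the same protocol text, which names low attachment plates, stood beside adherent and floating samples alike. Levels below are log2 signals minus the 75th percentile of the same array, and a difference of 1 on this scale is a 2-fold difference.

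Many genes in this number range encode KRAB zinc finger proteins. Such a protein reads a DNA sequence with its array of fingers and brings in, through its KRAB domain, the co-repressor TRIM28 together with the H3K9 methyltransferase SETDB1 and HP1 proteins, and HP1gamma, the product of Cbx3, is 1 of these HP1 proteins. The family is known above all for silencing endogenous retroviruses, and its genes arose by repeated duplication and lie in clusters of near-identical copies that are themselves marked by H3K9me3 and HP1 proteins. Not every member has a KRAB domain: Zfp830, for example, is known as a splicing-associated factor needed in the early embryo.

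The promoters of the chromosome 4 genes are shown because the largest differences below were in this cluster and because most of these windows resemble each other. They are taken from RefSeq (build GRCm38.p6), run from 250 bases before to 50 bases after each annotated start, read 5' to 3' on the gene's own strand, and have every CG dinucleotide in capitals. Zfp992 is named only, and the window of Zfp933, which matched those of the other chromosome 4 members at no more than 49.1% of positions, is not printed.

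Zfp979 (chr4:147642459-147642758, minus strand): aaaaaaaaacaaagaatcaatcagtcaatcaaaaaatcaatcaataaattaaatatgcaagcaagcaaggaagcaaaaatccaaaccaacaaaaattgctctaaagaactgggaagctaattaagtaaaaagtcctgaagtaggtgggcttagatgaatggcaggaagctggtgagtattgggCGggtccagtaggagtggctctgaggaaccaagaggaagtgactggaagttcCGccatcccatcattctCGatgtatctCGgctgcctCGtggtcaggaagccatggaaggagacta
Zfp981 (chr4:146514670-146514969, plus strand): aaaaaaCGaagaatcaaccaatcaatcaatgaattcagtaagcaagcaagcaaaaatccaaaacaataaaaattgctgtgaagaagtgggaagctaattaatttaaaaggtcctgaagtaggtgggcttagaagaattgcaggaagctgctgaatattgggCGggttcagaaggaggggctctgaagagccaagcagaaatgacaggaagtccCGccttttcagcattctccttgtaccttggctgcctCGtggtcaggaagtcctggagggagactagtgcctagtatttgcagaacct
Zfp982, first start (chr4:147442864-147443163, plus strand): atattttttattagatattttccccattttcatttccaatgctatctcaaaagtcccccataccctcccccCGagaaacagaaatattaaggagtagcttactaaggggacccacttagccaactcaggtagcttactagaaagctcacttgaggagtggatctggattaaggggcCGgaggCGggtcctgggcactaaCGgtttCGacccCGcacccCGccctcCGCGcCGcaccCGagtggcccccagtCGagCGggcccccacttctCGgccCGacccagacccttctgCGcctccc
Zfp982, second start (chr4:147492167-147492466, plus strand): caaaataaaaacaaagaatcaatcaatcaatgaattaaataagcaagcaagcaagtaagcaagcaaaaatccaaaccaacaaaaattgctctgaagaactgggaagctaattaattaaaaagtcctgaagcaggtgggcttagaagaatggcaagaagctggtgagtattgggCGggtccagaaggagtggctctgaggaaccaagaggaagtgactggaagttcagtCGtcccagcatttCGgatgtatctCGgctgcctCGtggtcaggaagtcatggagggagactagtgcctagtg
Zfp984 (chr4:147809739-147810038, minus strand): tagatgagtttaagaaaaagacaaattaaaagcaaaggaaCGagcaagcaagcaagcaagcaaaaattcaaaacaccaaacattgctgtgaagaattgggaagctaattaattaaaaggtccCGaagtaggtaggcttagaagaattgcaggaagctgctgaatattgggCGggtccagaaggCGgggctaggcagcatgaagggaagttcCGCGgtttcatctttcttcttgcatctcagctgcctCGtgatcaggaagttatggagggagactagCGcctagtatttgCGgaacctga
Zfp985 (chr4:147553027-147553326, plus strand): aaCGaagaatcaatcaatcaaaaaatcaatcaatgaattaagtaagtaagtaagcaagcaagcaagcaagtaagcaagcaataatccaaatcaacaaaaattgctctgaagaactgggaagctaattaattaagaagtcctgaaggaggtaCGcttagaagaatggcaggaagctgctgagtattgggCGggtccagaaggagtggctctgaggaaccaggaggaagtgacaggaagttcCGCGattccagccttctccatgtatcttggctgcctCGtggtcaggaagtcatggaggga

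The Zfp979 and Zfp985 windows were identical at 81.3% of aligned positions, and those of Zfp981 and Zfp984 at 77.1%. The other pairs among these genes matched at 67.9% (Zfp979 and Zfp984) to 74.0% (Zfp979 and Zfp981). RefSeq lists more than 1 start for Zfp982: the first shown holds 16 CG dinucleotides and matched no other chromosome 4 window at over 49.1%, whereas the second holds 5 and matched Zfp979 at 84.6% and Zfp985 at 81.0%. Zfp979, Zfp981, Zfp984 and Zfp985 share the run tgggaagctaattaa, which was found in 7 of the 79 members with a promoter window and in 11 of all 27025 windows. CG counts were 5 in Zfp979, 4 in Zfp981, 9 in Zfp984 and 6 in Zfp985, and the median over the 79 members was 9, beside 7 over all windows. A count of 12 or more was less frequent in members (31.6%) than in all windows (40.1%).

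A search of both strands for a few short motifs gave shares for the members beside those for all windows. The ETS motif CCGGAAG was in 15 of 79 members (19.0%, against 9.12% of all windows), and the TATA box TATAAA in 1 of 79 (1.27%, against 14.2%). Among the 15 with the ETS motif were Zfp965, Zfp966, Zfp967, Zfp968, Zfp972 and Zfp973, all of 1 cluster on chromosome 2. Members of 1 cluster were each counted. The Sp1 motif GGGCGG was in 38.0% of members and 35.9% of all windows, the YY1 motif AAGATGGC in 5.06% and 2.88%, and the CRE TGACGTCA in 1.27% and 1.88%. The NRF1 palindrome was in 0 of 79 members and in 0.977% of all windows. These are matches of letters in a window and not measured binding.

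Before the results, the targeted gene itself has to be given, since it goes against 2 labels. Cbx3 read 5.83 on WT floating 1, 5.95 on WT floating 3 and 5.91 on KO adherent 2. It read -2.17 on WT floating 2, -1.86, -2.76 and -1.75 on KO floating 1, 2 and 3, and -2.03 on KO adherent 1. The library labelled WT floating 2 thus had Cbx3 at the level of the KO arrays and the library labelled KO adherent 2 at the level of the other wild type arrays, with a gap of 7.59 between the levels, and both Cbx3 probes gave this split. Where the probes lie relative to the deletion is unknown, as the labels do not describe the allele. The genotype comparison is given without these 2 arrays and with all 8 arrays as labelled, and the culture comparison with all 8 and without KO adherent 2. The 75th percentile of signal ran from 616 to 865 over the arrays, and 44.5% to 55.4% of the 59305 non-control spots were well above background.

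Of the 69 members with a probe, 52 were well above background on all 8 arrays by at least 1 probe, 14 on 1 to 7 arrays, and 3 (Zfp831, Zfp872 and Zfp940) on none. A member entered a test when 1 group or more of that test had its probe above background on all arrays, and where several probes passed, the one with the highest mean stood for the gene. Probes of this family may pick up transcripts of near-identical copies. The probe sequences were not used here, so values of closely related members, above all within the chromosome 4, 2 and 17 clusters, are uncertain as to which copy they measure.

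The question of the design was what loss of HP1gamma does to gene expression in these cells. The comparison with the most calls set WT floating 1 and 3 against the KO arrays with low Cbx3, which are KO floating 1, 2 and 3 and KO adherent 1. Here 22 of 59 tested members were higher in KO and 0 were lower at an adjusted p under 0.05 (limma, Benjamini-Hochberg over all 21463 features tested). In the background of all features, 8.99% were called higher and 8.35% lower. At an unadjusted p under 0.05, 34 members were higher and 1 was lower. The median difference of the members was 0.64, beside -0.07 for all features, and 49 of 59 members had a difference above 0. The 22 called members lie on 8 chromosomes, and 11 of them differed by at least 2-fold. Fewer cells of a type and less RNA per cell cannot be told apart in these whole-culture samples, and the adherent array differs from the wild type arrays in both culture and genotype.

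The count depended on single arrays. Leaving out WT floating 1 gave 5 called members, WT floating 3 gave 2, KO floating 1 gave 4 and KO adherent 1 gave 3, against 27 (26 higher and 1 lower) without KO floating 2 and 29 (28 higher and 1 lower) without KO floating 3. The share of all features called in either direction moved with it, from 17.3% with all 6 arrays, where 37.3% of members were called, to 2.73% without WT floating 3, where 3.33% of members were. It was 3.24% beside 6.78% of members without KO floating 1, 4.08% beside 8.47% without WT floating 1, and 2.15% beside 5.08% without KO adherent 1. Without KO floating 2 it was 23.6% beside 27 of 60 members, and without KO floating 3 it was 22.9% beside 46.8%. The median difference lay between 0.55 and 0.66 in these same fits, and between 47 and 52 members were above 0. Of the 59 tested members, 6 passed the filter through the KO arrays alone, and 5 of these 6 were among the called. With the fit limited to features above background on all 6 arrays, 17 of 52 members were called higher (7.82% of all features) and 0 lower, with a median of 0.61. Arrays did not overlap, with KO higher, for 40 of the 59 members (24% of all features).

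**Figure D1:**
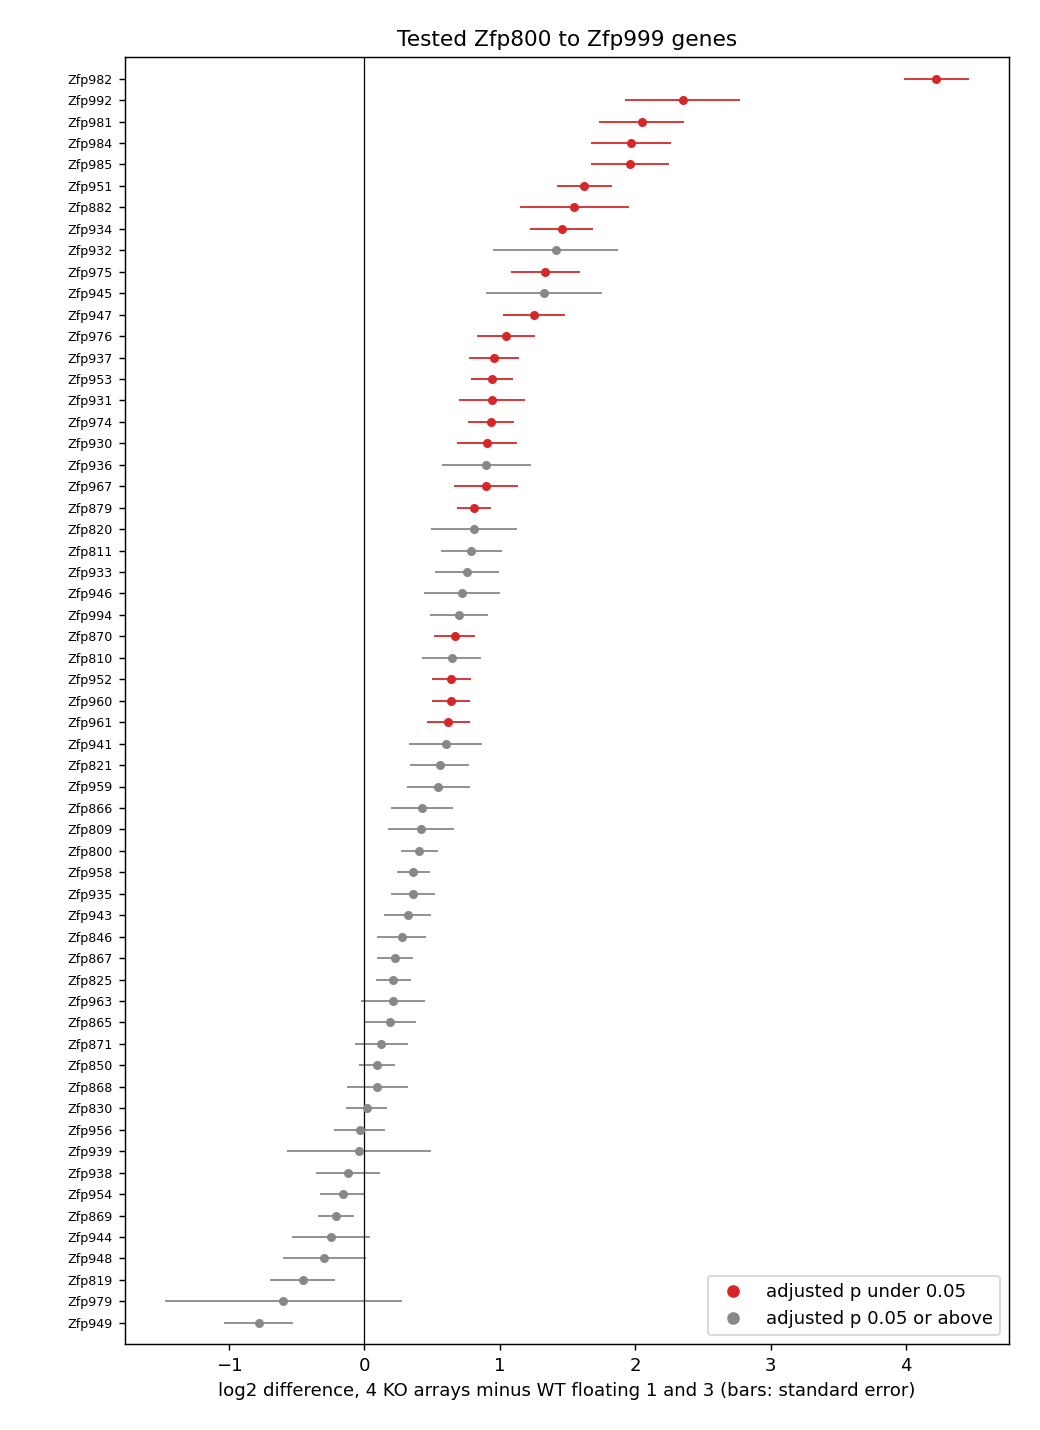
Log2 difference of each of the 59 tested Zfp800 to Zfp999 genes (rows) between the mean of KO floating 1, 2 and 3 with KO adherent 1 and the mean of WT floating 1 and 3; points are differences, bars are limma standard errors, and red marks an adjusted p under 0.05. The 22 red points all lie to the right of 0, from Zfp961 at 0.62 to Zfp982 at 4.22, and the lowest point is Zfp949 at -0.78.

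The chromosome 4 cluster, a group known for its recent expansion in the mouse and for products that bind endogenous retroviruses, held the 5 largest differences. Of its 14 members, 7 had a probe, all 7 were tested, and Zfp982, Zfp992, Zfp981, Zfp984 and Zfp985 were called higher, with a cluster median of 1.97. Zfp933 and Zfp979 were not called.

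Zfp982, which has been studied in embryonic stem cells, read -5.05 on WT floating 1 and -5.42 on WT floating 3, and on both it was not well above background. Its level was -0.91, -0.68 and -1.02 on KO floating 1, 2 and 3 and -1.43 on KO adherent 1. On the 2 doubted libraries it read -0.66 on WT floating 2 and -5.60 on KO adherent 2. The gene was not above background on the 3 arrays with high Cbx3 and detected on the 5 with low Cbx3, with no overlap between them. The difference was 4.22 (SE 0.24, adjusted p = 0.00184, limma). Since the wild type side is below background, the fold is given as a bound, taken against the lowest signal that counted as well above background on each wild type array: at least 6.95-fold higher in KO. The same probe in KO floating against WT floating 1 and 3 was at least 7.66-fold higher.

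The first start of Zfp982, the CG-rich window printed above, and the second, whose window resembles those of its neighbours, cannot be told apart with its single probe.

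Zfp992 read -1.18 and -2.78 on WT floating 1 and 3, 0.26, 0.66 and 0.36 on KO floating 1, 2 and 3, 0.18 on KO adherent 1, 0.90 on WT floating 2 and -1.45 on KO adherent 2. Zfp981 read -1.56 and -1.98 on WT floating 1 and 3, 0.20, 0.63 and -0.34 on KO floating 1, 2 and 3, 0.63 on KO adherent 1, 0.59 on WT floating 2 and -2.10 on KO adherent 2. Both genes were above 0 on WT floating 2 and below -1 on KO adherent 2, and the KO and wild type arrays of the test did not overlap. The differences were 2.35 (SE 0.42, adjusted p = 0.0235, limma) for Zfp992 and 2.05 (SE 0.31, adjusted p = 0.0169, limma) for Zfp981. Both probes of Zfp992 were higher, by 2.35 and 2.82, and the 3 probes of Zfp981 lay between 2.05 and 2.89.

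Zfp984 read 0.42 and -0.34 on WT floating 1 and 3, 2.16, 1.87 and 2.38 on KO floating 1, 2 and 3, 1.62 on KO adherent 1, 2.27 on WT floating 2 and 0.01 on KO adherent 2. Zfp985 read -2.23 and -3.25 on WT floating 1 and 3, -0.79, -0.67 and -0.69 on KO floating 1, 2 and 3, -0.98 on KO adherent 1, -0.38 on WT floating 2 and -2.07 on KO adherent 2. In both genes all 4 KO arrays lay above the wild type pair, and KO adherent 2 lay with or near that pair. The differences were nearly the same size, 1.97 for Zfp984 (SE 0.30, adjusted p = 0.0160, limma) and 1.96 for Zfp985 (SE 0.29, adjusted p = 0.0152, limma).

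Zfp979, listed by RefSeq also as Ssm1b and known as a strain-specific modifier of transgene methylation, did not follow its neighbours. It read 0.69 and 1.15 on WT floating 1 and 3, 0.25, -0.64 and 2.38 on KO floating 1, 2 and 3, -0.71 on KO adherent 1, 0.53 on WT floating 2 and 1.53 on KO adherent 2. The KO arrays lay on both sides of the wild type pair, with KO floating 3 highest of all. The difference was -0.60 (SE 0.87, adjusted p = 0.635, limma), and it was 0.0029 with the replicate number as a block. Its promoter window, shown above, is identical to that of Zfp985 at 81.3% of positions. Zfp933 had a difference of 0.75 that did not pass (adjusted p = 0.0713, limma).

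**Figure D2:**
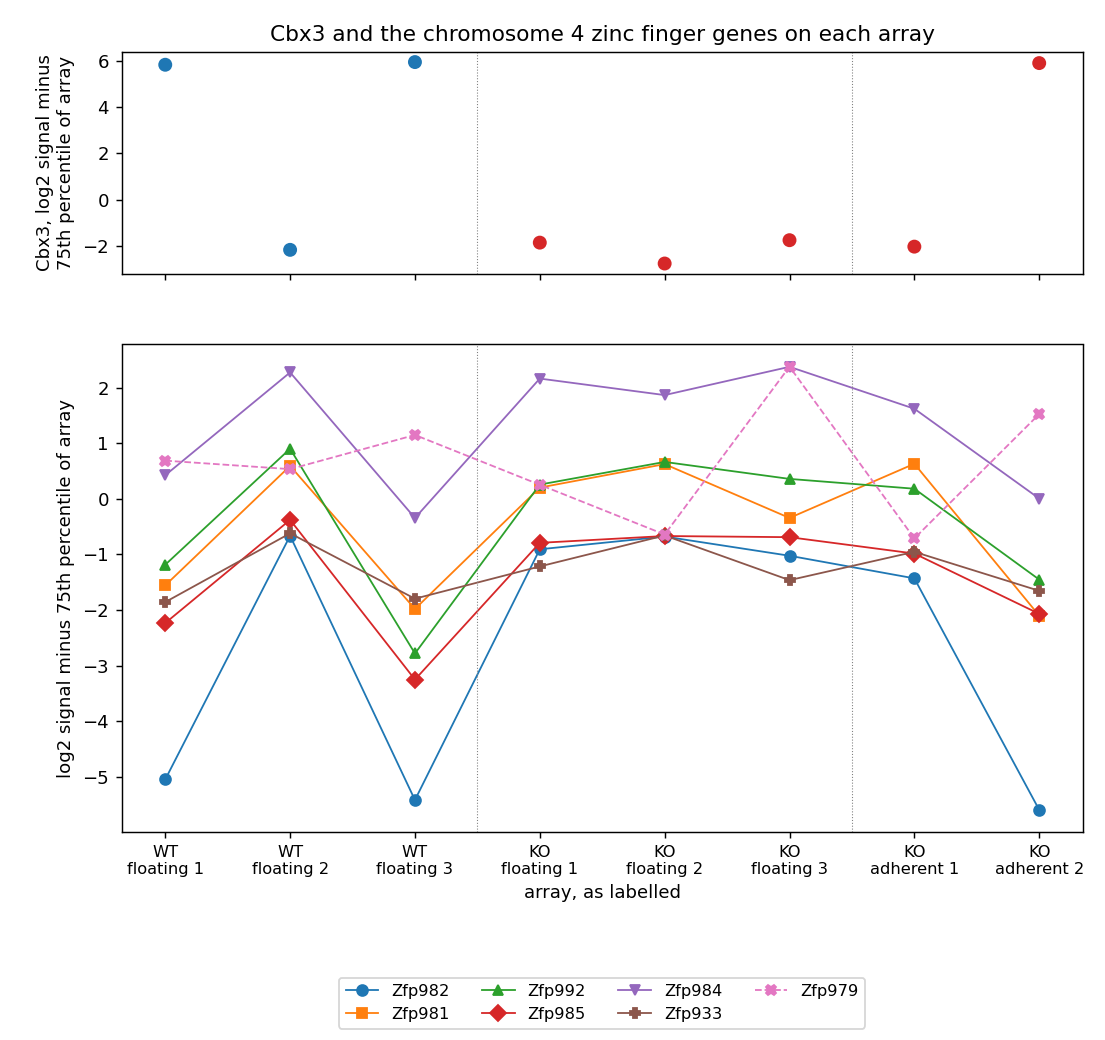
Level of Cbx3 (upper panel, blue for arrays labelled wild type and red for arrays labelled KO) and of the 7 tested chromosome 4 zinc finger genes (lower panel, 1 colour per gene) on each array, as log2 signal minus the array's 75th percentile; lines only join the points of a gene. Zfp982 sits at -5.05, -5.42 and -5.60 on the 3 arrays with high Cbx3 and between -1.43 and -0.66 on the other 5, while Zfp979 (dashed) does not follow this order.

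Genes between these members that are not part of the number range were looked at in the same fit. In the chromosome 4 cluster, 4 such neighbours were tested, and 3 were called higher: Zfp534 by 1.36, Zfp600 by 1.44 and the pseudogene Znf41-ps by 2.96. Znf41-ps read -2.61 and -3.92 on WT floating 1 and 3 against -0.55, 0.13 and -0.41 on KO floating and -0.39 on KO adherent 1. Over the other clusters, 1 of 8 tested neighbours was called higher on chromosome 2 (Gm14308, 1.09) and the 1 tested on chromosome 13 (Gm3604, 1.74). On chromosome 17, 1 of 4 was called higher in the larger of its 2 clusters (Zfp229, 0.80) and 0 of 4 in the smaller. On chromosome 7, 0 of 6 were called, and no neighbour was called lower. Of all features 8.99% were called higher. These neighbours were named after their values were seen.

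Outside the chromosome 4 cluster 17 members were called, 8 of them in no cluster. In the same fit 8.99% of all features were called higher. The counts by chromosome that follow are of clusters, which held at least 3 members with starts at most 1 Mb apart. On chromosome 2, 4 of 10 members had a probe, 2 were tested, and both were called, Zfp931 at 0.94 and Zfp967 at 0.90. On chromosome 7, 2 of 4 tested members were called (Zfp975 and Zfp976), while Zfp819, known from pluripotent and germ cells, had a difference of -0.45 that did not pass. On chromosome 8, 1 of 5 tested members was called (Zfp930). Chromosome 17 had 2 clusters, with 1 of 8 tested members called in the larger one (Zfp947) and 2 of 4 in the smaller one (Zfp870 and Zfp952). On chromosome 13, 1 of 2 was called (Zfp934), and on chromosome 9, 0 of 2. The chromosome 9 pair includes Zfp809, the protein known to recognise the primer binding site of murine leukaemia virus, at 0.42 (adjusted p = 0.247, limma) with its other probe at -0.38.

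The 25 tested members outside any cluster had a median of 0.41, with 8 called higher. The median difference was 1.97 on chromosome 4, 0.97 on chromosome 7, 0.92 on chromosome 2 and 0.21 on chromosome 8, and these differences between clusters were not tested.

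**Figure D3:**
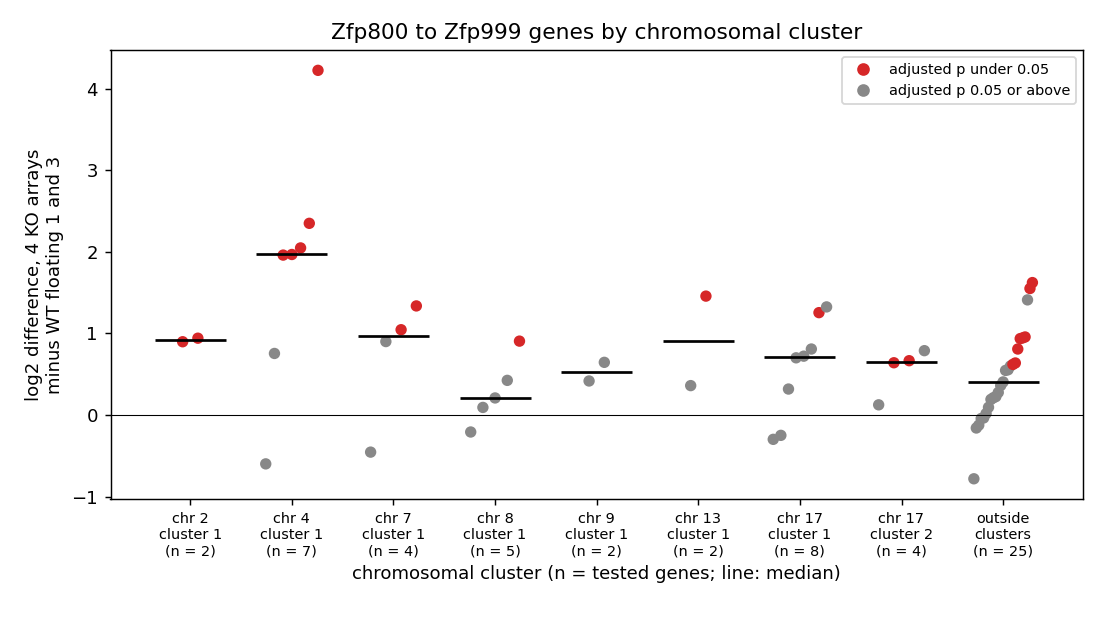
Log2 difference between the 4 KO arrays and WT floating 1 and 3 for each tested member, grouped by chromosomal cluster; each point is a gene, red marks an adjusted p under 0.05, and the black line is the median of the group. The chromosome 4 points reach 4.22 around a median of 1.97, and the 25 members outside clusters have a median of 0.41.

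Zfp951, Zfp882 and Zfp934 followed the chromosome 4 genes in size. Zfp951, on chromosome 5, read -1.96 and -1.83 on WT floating 1 and 3, -0.34, 0.07 and -0.59 on KO floating 1, 2 and 3, -0.22 on KO adherent 1, -0.21 on WT floating 2 and -0.72 on KO adherent 2. Zfp934, on chromosome 13, read -3.83 and -4.14 on WT floating 1 and 3, -2.59, -2.08 and -2.81 on KO floating 1, 2 and 3, -2.63 on KO adherent 1, -2.04 on WT floating 2 and -2.73 on KO adherent 2. In both, KO adherent 2 lay within or next to the KO arrays and not with the wild type pair, unlike in the chromosome 4 genes. The differences were 1.62 (SE 0.20, adjusted p = 0.0115, limma) and 1.46 (SE 0.23, adjusted p = 0.0183, limma), and Zfp934 passed the filter only through KO, with 1 of its 2 wild type arrays above background.

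Zfp882, on chromosome 8 outside its cluster, read -3.09 and -3.56 on WT floating 1 and 3, -2.16, -0.89 and -2.22 on KO floating 1, 2 and 3, -1.82 on KO adherent 1, -0.99 on WT floating 2 and -3.02 on KO adherent 2. Its 4 KO arrays were all higher than the wild type pair but spread widely (mean -1.77 ± 0.62, SD, n = 4), and KO floating 2 and WT floating 2 stood above the rest. The difference was 1.55 (SE 0.40, adjusted p = 0.0466, limma), and its 3 probes gave between 1.54 and 2.29. Zfp882 passed the filter only through KO, since WT floating 3 was not above background, which limits how exactly the difference is known.

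The chromosome 7 pair and Zfp947 on chromosome 17 were at higher signal. Zfp975 read 0.37 and 0.75 on WT floating 1 and 3, 1.80, 2.27 and 1.47 on KO floating 1, 2 and 3, 2.05 on KO adherent 1, 2.27 on WT floating 2 and 0.84 on KO adherent 2. Zfp976 read 1.80 and 1.79 on WT floating 1 and 3, 2.81, 3.24 and 2.49 on KO floating 1, 2 and 3, 2.82 on KO adherent 1, 3.38 on WT floating 2 and 1.83 on KO adherent 2. Zfp947 read 2.29 and 1.63 on WT floating 1 and 3, 3.25, 3.46 and 3.19 on KO floating 1, 2 and 3, 2.96 on KO adherent 1, 3.62 on WT floating 2 and 1.99 on KO adherent 2. In all 3 genes WT floating 2 was the highest array or level with the highest, and KO adherent 2 lay close to the wild type pair. The differences were 1.34 (adjusted p = 0.0255), 1.05 (adjusted p = 0.0303) and 1.25 (adjusted p = 0.0239) by limma, and the 5 probes of Zfp975 were all higher, by 0.87 to 1.34.

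Zfp937, on chromosome 2, read -0.99 and -0.86 on WT floating 1 and 3, 0.02, 0.14 and -0.31 on KO floating 1, 2 and 3, 0.26 on KO adherent 1, 0.02 on WT floating 2 and -0.96 on KO adherent 2. The difference was 0.96 (SE 0.19, adjusted p = 0.0273, limma). Of the members above background on at least 1 array, taken by the probe that was tested, Zfp984 had the pattern most like that of Zfp982 (Pearson r = 0.971 over the 8 arrays), followed by Zfp870 (0.969), Zfp974 (0.964), Zfp947 (0.964) and Zfp981 (0.959). These r values describe 8 arrays that share the Cbx3 split, with 3 arrays low and 5 high for Zfp982.

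Smaller differences passed the test where arrays of a group lay close together. Zfp960 read 0.32 and 0.40 on WT floating 1 and 3, 1.11, 0.82 and 0.98 on KO floating 1, 2 and 3, 1.08 on KO adherent 1, 0.79 on WT floating 2 and 0.57 on KO adherent 2. Zfp870 read -2.79 and -3.01 on WT floating 1 and 3, -2.24, -2.06 and -2.23 on KO floating 1, 2 and 3, -2.39 on KO adherent 1, -2.21 on WT floating 2 and -3.22 on KO adherent 2. Zfp952 read -3.55 and -3.76 on WT floating 1 and 3, -2.87, -2.97 and -3.09 on KO floating 1, 2 and 3, -3.14 on KO adherent 1, -2.76 on WT floating 2 and -3.51 on KO adherent 2. None of the 3 had overlapping groups, although the KO arrays stood less than 1 unit above the wild type pair. The differences were 0.64 for Zfp960 (adjusted p = 0.0346), 0.67 for Zfp870 (adjusted p = 0.0360) and 0.64 for Zfp952 (adjusted p = 0.0363) by limma. Zfp952 passed the filter only through KO. With the replicate number as a block Zfp870 (0.60) and Zfp952 (0.60) no longer passed.

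The remaining called members were Zfp953 (0.95, at least 1.57-fold higher, as neither wild type array was above background), Zfp974 (0.94), Zfp879 (0.81) and Zfp961 (0.62). ZFP961 is known, like ZFP809, for binding retroviral primer binding sites. Among members with large differences that did not pass was Zfp932, a repressor of endogenous retroviruses in embryonic stem cells. It read 0.41 and 0.49 on WT floating 1 and 3, 1.58, 2.90 and 1.14 on KO floating 1, 2 and 3, 1.82 on KO adherent 1, 2.56 on WT floating 2 and 0.88 on KO adherent 2. Its arrays did not overlap either, but the KO arrays were spread (SD 0.75, n = 4), and the difference of 1.41 had an adjusted p of 0.0787 (limma). Zfp945 was similar, with 1.32 (adjusted p = 0.0771, limma). Zfp830, the splicing-associated member, had a difference of 0.02 (SE 0.15). The lowest difference was that of Zfp949, -0.78 (adjusted p = 0.0790, limma).

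Probes of 1 gene mostly gave 1 direction. Of 27 tested members with at least 2 probes that passed the filter, 24 had all probes on 1 side of 0 and 21 had all probes higher in KO. The exceptions were Zfp930, Zfp944 and Zfp809. Zfp930, called at 0.91 (adjusted p = 0.0412, limma), read 1.26 and 1.27 on WT floating 1 and 3, 2.10, 2.57 and 1.81 on KO floating 1, 2 and 3, 2.20 on KO adherent 1, 2.63 on WT floating 2 and 1.35 on KO adherent 2, while its other probe had a difference of -0.51. Zfp944 read 0.79 and 0.83 on WT floating 1 and 3, 0.59, -0.04 and 1.01 on KO floating 1, 2 and 3, 0.69 on KO adherent 1, 0.14 on WT floating 2 and 1.003 on KO adherent 2. That probe gave -0.25 (adjusted p = 0.547, limma), another gave 0.99, and the mean of its probes gave 0.49, so the direction for Zfp944 depends on the probe. Which transcripts the disagreeing probes measure was not tested.

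Zinc finger genes outside the number range gave a smaller shift. Of 237 tested Zfp genes with a number under 800, 44 were called higher and 6 lower, with a median of 0.35. Of all features in this fit 8.99% were called higher and 8.35% lower. With features above background on all 6 arrays 38 of 213 were higher and 7 lower, with a median of 0.30, where 7.82% of all features were called higher. The difference between the number ranges was not tested.

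The arrays themselves were ordered in much the same way by many members. For the 52 members above background on all 8 arrays, the median deviation from each probe's own mean was -0.35 on WT floating 1, -0.45 on WT floating 3 and -0.30 on KO adherent 2. It was 0.52 on WT floating 2, 0.11, 0.43 and -0.02 on KO floating 1, 2 and 3, and 0.20 on KO adherent 1. Over all 18869 such features the array medians stayed between -0.11 and 0.08. The 2 highest arrays were KO floating 2 and WT floating 2 for 29 of the 52 members (55.8%, against 16.4% of all features). The 3 lowest were WT floating 1, WT floating 3 and KO adherent 2 for 31 of 52 (59.6%, against 16.0%).

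**Figure D4:**
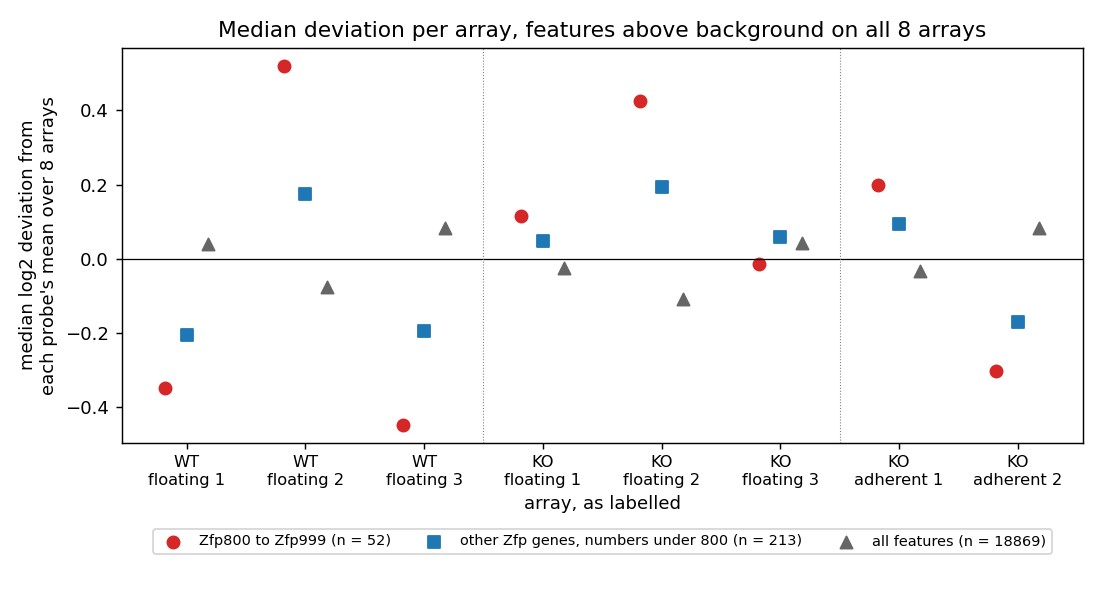
Median log2 deviation from each probe's mean over the 8 arrays, for the 52 Zfp800 to Zfp999 genes (red circles), 213 other Zfp genes with a number under 800 (blue squares) and all 18869 features (grey triangles) above background on all arrays. The members are lowest on WT floating 3 (-0.45) and highest on WT floating 2 (0.52), while all features stay between -0.11 and 0.08.

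The 2 arrays left out of the test were read on the 22 called members. WT floating 2 was above both other wild type arrays for 22 of 22 members and above the lowest KO array for 21 of 22, shares that were 99.6% and 87.1% for the 1929 features called higher. KO adherent 2 was below all 4 other KO arrays for 21 of 22 members (93.7% of those features), and below the higher of the wild type pair for 9 of 22 (37.7%). The members did what the called features did in general on these 2 libraries, and whether labels were exchanged was not tested. Arrays lay in 2 rows of the slide, and within row 1 the members' median difference was 0.64 (45 of 52 higher; all features -0.11) and within row 2 it was 0.56 (44 of 52 higher; all features -0.08). Each row held 2 of the KO arrays and 1 wild type array of the test.

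With KO floating alone against WT floating 1 and 3, 1 of 63 tested members was called higher, where 0.0963% of all features were. This was Zfp982, at 4.36 (SE 0.20, adjusted p = 0.0165, limma), but 0 members passed when any 1 of the KO floating arrays was left out. Leaving out WT floating 1 or WT floating 3 leaves 1 wild type array. The members' median was 0.64 without WT floating 1 and 0.54 without WT floating 3. With KO adherent 1 left out 3 members passed (5.08%), where 2.15% of all features were called, beside 0.177% with that array in. KO adherent 1 enters this fit through the estimate of spread and through the filter, with 21473 features tested without it and 25962 with it. With the replicate number as a block Zfp982 kept a difference of 4.27 and did not pass. The median over members was 0.63, with 53 of 63 above 0, beside -0.04 for all features. This comparison shares its KO floating and wild type arrays with the one above and is not independent of it.

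With all 8 arrays as labelled, KO floating against WT floating, 0 of 59 members passed in either direction (limma), beside 0.00442% of all 22647 features, and 1 member had an unadjusted p under 0.05. The median was 0.29 with 46 of 59 members higher, and the all-feature median was -0.03. Leaving out WT floating 3 gave a members' median of 0.12, leaving out KO floating 2 gave 0.16, leaving out WT floating 1 gave 0.17 and leaving out WT floating 2 gave 0.63. Zfp genes with a number under 800 had a median of 0.21 here, with 0 of 242 called, the chromosome 4 cluster 1.14 and the silencing list -0.04, and no gene of any list was called. Arrays did not overlap, with KO higher, for 2 members (3.82% of all features), Zfp941 and Zfp960. Zfp941, on chromosome 7, read -1.79, -1.77 and -1.72 on WT floating 1, 2 and 3, -1.07, -1.64 and -0.66 on KO floating 1, 2 and 3, and -1.23 and -1.54 on KO adherent 1 and 2. By this probe its wild type arrays lay within 0.1 of each other. Its other probe read -2.63 and -2.04 on WT floating 1 and 3 and -1.45 on WT floating 2, the last within the KO floating range of -1.84 to -1.31. The difference was 0.63 (SE 0.26, unadjusted p = 0.0460, adjusted p = 0.813, limma). Zfp951 (1.04), Zfp960 (0.47) and Zfp982 (2.84) had the next smallest p and the same adjusted p of 0.813 (limma), and Zfp982 on wild type arrays ran from -5.42 to -0.66.

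For culture, KO adherent against KO floating with all 8 arrays, 0 of 59 members passed (limma), where 0% of all features did, and 0 had an unadjusted p under 0.05. The median was -0.26, with 46 of 59 members lower in adherent culture, but it was -0.02 without KO adherent 2, -0.12 without KO floating 2 and 0.02 with slide row in the fit. It was -0.39 without KO floating 3, -0.44 without KO adherent 1 and -0.41 with the replicate block. The members with the smallest p were Zfp870 (-0.63), Zfp982 (-2.64), Zfp947 (-0.82) and Zfp952 (-0.35), each with an adjusted p of 0.990 (limma). In these 4 genes KO adherent 2 was the lower of the adherent pair.

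The proteins through which KRAB zinc fingers act were taken as a list. The list held 34 symbols, in which Tasor stands under both an older and its current name. Of these, 31 were tested in KO of both cultures against WT floating 1 and 3, with a median of -0.05. Cbx3 was lower by design, 2 of the 31 were called higher, where 8.99% of all features were, and no other was called lower. Tasor, a subunit of the HUSH silencing complex, was higher by 0.80 (SE 0.16, adjusted p = 0.0270, limma), and Dnmt3a, a de novo DNA methyltransferase, by 0.64 (SE 0.16, adjusted p = 0.0460, limma). Trim28, the shared co-repressor, had a difference of -0.18 (SE 0.12, adjusted p = 0.290, limma). Setdb1 read between 0.40 and 1.02 on 7 arrays and -6.15 on KO floating 3, where its single probe was not above background.

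Marker lists of the cell types these cultures could hold were read in the same comparison. Of neural stem and radial glia markers 4 of 12 tested were called higher and 2 lower, and of oligodendrocyte lineage markers 4 of 7 higher and 1 lower. Of neuron markers 3 of 5 were called higher, and of astrocyte markers 2 of 5 higher and 1 lower. Of all features 8.99% were called higher and 8.35% lower. Through the KO arrays alone, 2 of the 5 neuron markers and 1 of the 5 astrocyte markers passed the filter. With features above background on all 6 arrays, 1 of 3 neuron markers and 1 of 3 astrocyte markers were called higher and 0 lower. The summed signal of the neural stem list, in log2, lay between 9.03 and 9.04 on WT floating 1 and 3 and between 9.41 and 9.96 on the 4 KO arrays. That of the oligodendrocyte list lay between 5.65 and 5.71 against 7.09 and 7.63, that of the neuron list between 4.51 and 4.55 against 4.90 and 5.18, and that of the astrocyte list between 5.57 and 6.88 against 6.24 and 7.35. These sums add signals of different probes and are weighted to the brightest, and members of the lists went both ways. Hes5 read 4.64 and 5.11 on WT floating 1 and 3 and between 7.48 and 8.57 on the 4 KO arrays, whereas Nes (5.26 and 5.06 against 4.03 to 4.73) and Vim (7.82 and 7.84 against 6.98 to 7.36) were called lower in KO, as were Mbp and Gfap. Gfap was above background on only 3 of the 8 arrays and passed the filter only through the wild type pair. The size of its difference is therefore limited by background.

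Of ganglionic eminence markers, the labelled origin, only Lhx6 was above background on all 8 arrays, while Dlx5, Gsx2 and Nkx2-1 were above it on none, and the summed signal lay between 2.15 and 2.24 against 2.40 and 3.32. Of microglia, endothelial and pluripotent markers 2 each passed the filter and 0 were called (limma), with an unadjusted p under 0.05 for 2 of the pluripotent list and 0 of the others. No pericyte marker passed the filter. The summed signals were 1.08 to 1.22 against 0.43 to 1.45 for microglia, where Aif1, Cx3cr1 and Ptprc were above background on no array, and 3.27 to 3.53 against 3.02 to 3.52 for endothelium, where Cdh5 and Cldn5 were not. They were -2.16 to -1.54 against -3.03 to -1.99 for pericytes and mesenchyme, where Pdgfrb and Rgs5 were not above background on any array. For pluripotent cells and the 2-cell embryo they were 3.22 to 3.24 against 1.49 to 2.85. Pou5f1 and Zscan4c were above background on no array. This last sum mostly follows Eif1a, the brightest gene of its list, which was lower in KO with a difference of -1.07. Nanog, the only other gene of that list above background on all 8 arrays, went the other way with 0.87, and neither was called (limma). The part of cell composition in the zinc finger differences was not tested.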

How the data were processed

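Total RNA was labelled with Cy3 and hybridised to one-colour Agilent arrays, 8 in all, per the labels' protocols. The deposited intensity used was the processed signal, background-subtracted by Agilent Feature Extraction, version 11.0.1.1 per the file headers and 9.1.3.1 per the submitters' processing notes. The authors' value table held the same intensity (100% of 55249 single-spot probes within 0.01%). From each log2 signal the 75th percentile of its array, taken without control spots, was subtracted. Of 55681 probes, 27235 were named through their RefSeq accession. The RefSeq table is of another build than the files and served for names, clusters and promoters.

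Differences were tested in limma 3.58.1 (R 4.3.3), two-sided, with Benjamini-Hochberg adjustment over all features and a threshold of 0.05. The fit was tested on simulated data. A 2-fold shift was recovered for 8% of shifted features in KO against WT floating and 1% in the culture comparison, both with 8 arrays. It was recovered for 0% in KO against WT floating with 6 arrays and for 33% in KO of both cultures. For a 4-fold shift these shares were 54%, 43%, 14% and 74%. A count of 0 called members therefore does not show that the members were unchanged. Arrays entered by label. Fits with 6 arrays leave out WT floating 2 and KO adherent 2. Array number limits the precision.

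Same-numbered WT and KO floating arrays deviated together (r = 0.103, 0.590 and 0.335), with the same number as the only basis for pairing, but 2 pairs of other numbers did too (r = 0.346 for WT floating 1 with KO floating 3 and 0.205 for WT floating 3 with KO floating 1), and the pairing is uncertain. The 2 adherent arrays deviate from their own mean as mirror images (r with WT floating 1 was -0.533 for KO adherent 1 and 0.533 for KO adherent 2). Their r values therefore cannot show whether the numbers mark pairs.

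Members and lists were chosen with earlier results of these data known. The members given array by array were those called, those with the largest difference or range, those whose probes disagreed most, and, where none passed, those with the smallest p; Zfp932 was added after its values were seen. Alternatives were quantile normalization, normexp with an offset of 50, the value table, other filters, the mean of probes, trend and robust moderation, slide row, a replicate block and each array left out. Protein sequences were not used here, and 1 marker list is not reported here.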

Additional observations from a re-analysis of the deposited data

Results flagged for a closer look

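Among 43 genes looked at in the 4 KO arrays with low Cbx3, 2 had 1 array far from the others. Setdb1 read -6.15 on KO floating 3, and the nearest of the other 3 read 0.63, a gap of 0.946 of the whole range. Zfp953 read -2.83 on KO floating 2, and the nearest read -3.17, a gap of 0.901 of a small range. Both gaps are above Dixon's critical value for 4 samples, which chance alone passes in about 1 group in 20. The causes were not tested.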

How the results depend on the processing

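The count of 0 called members in KO against WT floating and in KO adherent against KO floating, both with 8 arrays, held under every alternative run. In KO against WT floating with 6 arrays the 1 called member became 3 with trend and robust moderation or with only the 2 groups. It became 0 with features above background on all arrays, with the replicate block or with slide row, and leaving out 1 KO array gave 0 to 3. Of all features 0.177% were called in the main fit, 1.75% with trend and robust moderation, 2.15% with only the 2 groups and 0.683% with features above background on all arrays. In KO of both cultures the 22 became 1 with no filter, where 48960 features were tested and 0.366% of them called. It became 3 to 29 with 1 KO array left out, where 2.15% to 23.6% of all features were called. There, 15 passed with normexp, 17 with quantile normalization, 17 with features above background on all arrays, 18 with slide row, 20 with trend and robust moderation, 21 with the value table, 23 with the mean of probes and 25 with the replicate block (24 higher and 1 lower). The median over members was 0.39 with normexp and at least 0.53 under every other alternative. For the genes named, 2 signs turned in this comparison: Zfp944 at 0.49 with the mean of probes and Zfp979 at 0.0029 with the replicate block. The replicate block also moved Zfp941 past the threshold (0.82) and Zfp870 and Zfp952 below it. The causes were not tested. Where a signal was near background, as for Zfp982, Zfp953 and Zfp952 on wild type arrays, the size of a difference is limited by that background.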
